A study of Mus musculus with 12 samples.

Results

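The genes described here are 10 genes of arginine and polyamine metabolism among the 55487 genes counted. They were chosen by their role in this pathway and not by a threshold on their values, although earlier results of these data were known: the arginases Arg1 and Arg2, the nitric oxide synthase Nos2, the arginine synthesis enzyme Ass1, the cationic amino acid transporters Slc7a1 and Slc7a2, and the polyamine genes Odc1, Azin1, Srm and Sat1. All 10 were found in the table. In the bulk RNA-seq experiment, microglia that contain the enzyme ARG1 (ARG1+ microglia) were compared with neighbouring ARG1- microglia in the basal forebrain and striatum of YARG mice at postnatal day 13. The 12 libraries formed 4 groups of 3, namely ARG1- females, ARG1+ females, ARG1- males and ARG1+ males.

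All 4 groups came from the YARG strain, in which a yellow fluorescent protein (YFP) reporter was inserted behind the coding sequence of Arg1, so ARG1- cells carried the same allele as ARG1+ cells. According to the study's methods, cells were sorted as CX3CR1+ and CD206-, and YFP fluorescence alone then divided them into ARG1+ and ARG1-. Thus ARG1 status is the fluorescence of a reporter and not a measurement of Arg1 RNA. Tissue of several brains of one sex was pooled for each library, so a library is a pool and not a single animal. The study's figure legend for this experiment describes the replicates of each sex as litters, from whose tissue both populations were sorted. The labels do not state which ARG1+ and ARG1- libraries share a litter. The 12 libraries were therefore compared as independent, without a term for the litter, and a pairing of the populations could not be fitted.

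Arginine stands at a branch point of macrophage metabolism. Arginase splits it into ornithine and urea, whereas nitric oxide synthase turns it into nitric oxide and citrulline, and both enzymes draw on arginine that cationic transporters bring into the cell. Ornithine decarboxylase then makes putrescine from ornithine, spermidine and spermine synthases lengthen putrescine, and acetylation by SAT1 starts the breakdown and export of these polyamines. ARG1 is widely used as a marker of alternatively activated macrophages and the inducible synthase NOS2 as a marker of their classical activation.

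The position of the reporter is shown by the last codons of Arg1 on GRCm38, chr10:24915610-24915639, minus strand, with the stop codon behind which the reporter follows in capitals.
Arg1: gggactgactaccttaaaccacctaagTGA
In this strain the reporter is translated from the same transcript as ARG1.

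Library totals ranged from 28356659 to 60625170 counts, so that 3 counts, the limit under which a gene was read as not detected, equalled 0.0511 to 0.102 CPM (counts per 1000000 counts, on totals normalised by TMM). This limit covers counting error only, and no molecular identifiers were used, so PCR copies were counted as reads. Of all genes, 29671 had a count and 16908 passed the filter on low counts and were tested. Defining microglial markers were abundant in every library, with a summed level of 8 markers of 37500 to 48300 CPM in ARG1+ and 47700 to 63600 CPM in ARG1- microglia, and 6 of the 8 were lower in ARG1+ microglia. A list of 12 transcripts known for retained introns or nuclear location, led by Rsrp1, was higher in ARG1+ microglia for 8 genes and lower for 0, and its summed level did not overlap (4470 to 7860 against 1950 to 4160 CPM). Beside these counts, 9.42% of all genes tested were called lower in ARG1+ microglia and 6.44% higher (edgeR, adjusted p under 0.05).

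Markers of other cells were at lower levels, and some of them moved with the contrast. The 8 astrocyte markers summed to 130 to 152 CPM in ARG1+ and 178 to 224 CPM in ARG1- microglia, without overlap, and most of this was Slc1a3 (131 ± 4.95 and 176 ± 20.1 CPM), the 1 marker of the list that was called, as lower. The 8 oligodendrocyte markers summed to 171 to 266 and 265 to 388 CPM, with 1 called lower, the most abundant one, Cnp. The erythroid markers, led by Hbb-bs, summed to 0 to 3.39 CPM in ARG1+ and 3.69 to 17.7 CPM in ARG1- microglia, without overlap, with 1 of 5 tested genes lower (Hbb-bt, named after its values were seen), and Slc4a1 was at 0 counts in all 12 libraries. The monocyte markers summed to 3.70 to 7.76 and 5.12 to 14.1 CPM. Of 4 tested, Plac8 was lower (1.32 ± 0.777 against 6.75 ± 1.80 CPM) and Fn1, named after its values were seen, was higher (0 to 1.95 CPM, and 0 in all ARG1- libraries), while Chil3 was at 0 throughout.

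In the other 5 lists of markers of other cells, 0 of 18 genes tested were called by edgeR, and 1 (Pecam1, higher) had an unadjusted p under 0.05. The border macrophage list, led by Mrc1, summed to 113 to 239 CPM in ARG1+ and 106 to 141 CPM in ARG1- microglia (6 genes tested), the endothelial list, led by Pecam1, to 39.6 to 84.2 and 30.5 to 58.2 CPM (5 tested), and the neuron list, led by Meg3, to 2.31 to 10.7 and 4.50 to 20.2 CPM (6 tested). The T cell list, led by Il7r, summed to 14.5 to 33.3 and 13.9 to 51.6 CPM (1 tested), and the neutrophil list, led by Ltf, to 0 to 0.945 and 0 to 5.15 CPM (0 tested). The T cell markers Cd3e, Cd3d, Cd3g, Cd8a and Cd4, the neutrophil markers Ly6g and Retnlg and the endothelial marker Cldn5 were at 0 counts in all 12 libraries. The immediate early genes, led by Btg2, summed to 540 to 661 CPM in ARG1+ and 385 to 657 CPM in ARG1- microglia, with 2 of 9 called higher (beside 6.44% of all genes tested). The part of these lists in the results was not tested.

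Compared per exon length, as TPM (transcripts per 1000000), the 10 genes spanned a wide range of levels. Sat1, the spermidine and spermine acetyltransferase, stood highest, at 413 ± 40.2 TPM in ARG1+ and 472 ± 90.1 TPM in ARG1- microglia (SD, n = 6 libraries each). Srm, the spermidine synthase, followed at 115 ± 16.1 and 139 ± 25.4 TPM, and Azin1, which binds antizyme and so spares ornithine decarboxylase, at 43.4 ± 8.45 and 41.6 ± 15.3 TPM. Odc1, the ornithine decarboxylase, had 20.3 ± 4.91 and 16.1 ± 3.66 TPM. The mitochondrial arginase Arg2 had 8.56 ± 0.967 TPM in ARG1+ and 10.3 ± 2.2 TPM in ARG1- microglia, and the arginine transporter Slc7a1 had 1.25 ± 0.319 and 0.560 ± 0.255 TPM.

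Among these genes, those of polyamine metabolism thus stood above the arginine genes by mean level. Among ARG1+ libraries, each of the first 5 genes in this order lay above the next gene without overlap, and Slc7a1 overlapped with Arg1 and lay above Slc7a2, Ass1 and Nos2. Among ARG1- libraries, the ranges of Azin1 and Odc1 overlapped, as did those of Odc1 and Arg2. The 4 lowest genes, Arg1, Slc7a2, Ass1 and Nos2, had a mean over all libraries of 0.192, 0.0883, 0.0431 and 0.00144 TPM, and their order rests on counts in 4 libraries or fewer for each gene.

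**Figure D1:**
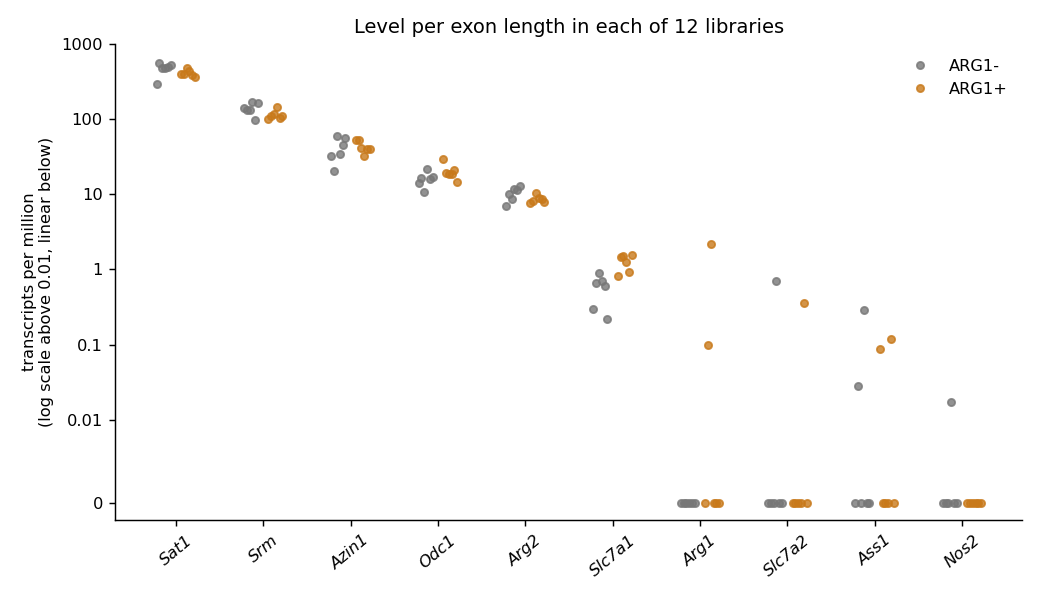
Level of each gene in TPM over the union of its exons (vertical axis, logarithmic above 0.01 and linear below) in 6 ARG1- (grey) and 6 ARG1+ (orange) libraries, 1 point per library, with genes ordered by their mean over 12 libraries. Sat1 has the highest mean (442 TPM) and Nos2 the lowest (0.00144 TPM), and Arg1, Slc7a2, Ass1 and Nos2 are at 0 in most libraries.

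The first question was whether cells sorted by an Arg1 reporter held Arg1 RNA. Arg1 (ENSMUSG00000019987, GRCm38 chr10:24915221-24927484), the cytosolic arginase, was counted in only 2 libraries, both from ARG1+ females, with 52 counts in replicate 15 and 2 in replicate 8. All 3 ARG1+ male and all 6 ARG1- libraries were at 0, as was ARG1+ female replicate 7. Thus 96.3% of its 54 counts came from 1 library. The 52 counts equalled 1.48 CPM or 2.2 TPM, and the mean of the 6 ARG1+ libraries was 0.258 ± 0.600 CPM (SD), which became 0.0136 CPM without replicate 15. In the 10 libraries at 0, the depth allows up to 3 counts each. Arg1 was under the filter on low counts. In an edgeR quasi-likelihood fit without the filter its unadjusted p was 0.0229 and its Benjamini-Hochberg adjusted p 0.152. In bulk RNA, fewer cells with a transcript and less of it per cell cannot be told apart. The study itself reported that Arg1 transcripts were not seen in its RNA-seq of ARG1+ microglia. By quantitative PCR with reverse transcription on sorted cells, with the same extraction, it found Arg1 expression restricted to the YFP+ population. That measurement is not part of the counts described here, so low counts in these libraries do not show that the cells lacked Arg1 RNA.

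A single library with nearly all the counts of a gene was also seen for other genes. A search for such genes was made after the Arg1 counts were seen. It asked for at least 52 counts in 1 library and at most 3 counts in each of the other 11. It found 181 genes, Arg1 among them, of which 145 are protein coding. All 181 were among the 12763 genes with a count that did not pass the filter. Each ARG1- library held 16 to 33 of these genes and each ARG1+ library 0 to 18, and ARG1+ female replicate 15 held 10. Among the 3300 genes with 30 to 100 counts in all, 315 (9.55%) had at least 90% of their counts in 1 library, and among the 1085 of them that are protein coding, 217 (20%) did. Arg1 itself is also among the 315 and the 217 genes.

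Slc7a2, which encodes a second cationic amino acid transporter that activated macrophages are known to use (chr8:40862396-40922308), had the same form of distribution. It had 84 counts (2.22 CPM) in ARG1- male replicate 5, 46 counts (0.966 CPM) in ARG1+ male replicate 12 and 0 counts in the other 10 libraries, that is, 1 library with counts in each population. Ass1, which joins citrulline to aspartate on the way back to arginine (chr2:31470207-31520672), had 16 counts in all. Of these, 9 fell in ARG1- male replicate 5, 4 in ARG1+ male replicate 12, 2 in ARG1+ female replicate 7 and 1 in ARG1- female replicate 2. Nos2, the inducible nitric oxide synthase (chr11:78920787-78960254), had 1 count, in ARG1- male replicate 5, and was at 0 in all 6 ARG1+ libraries. Neither the classical marker Nos2 nor the arginine synthesis gene Ass1 had more than 9 counts in any library. No test of these 4 genes by permutation of the libraries could pass 0.05, since each had counts in 4 libraries or fewer. The smallest p that a two-sided exact permutation test over all 924 splits of 6 against 6 could give was 0.455 for Arg1 and Slc7a2, 0.0606 for Ass1 and 1 for Nos2, so their values are given as a description.

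**Figure D2:**
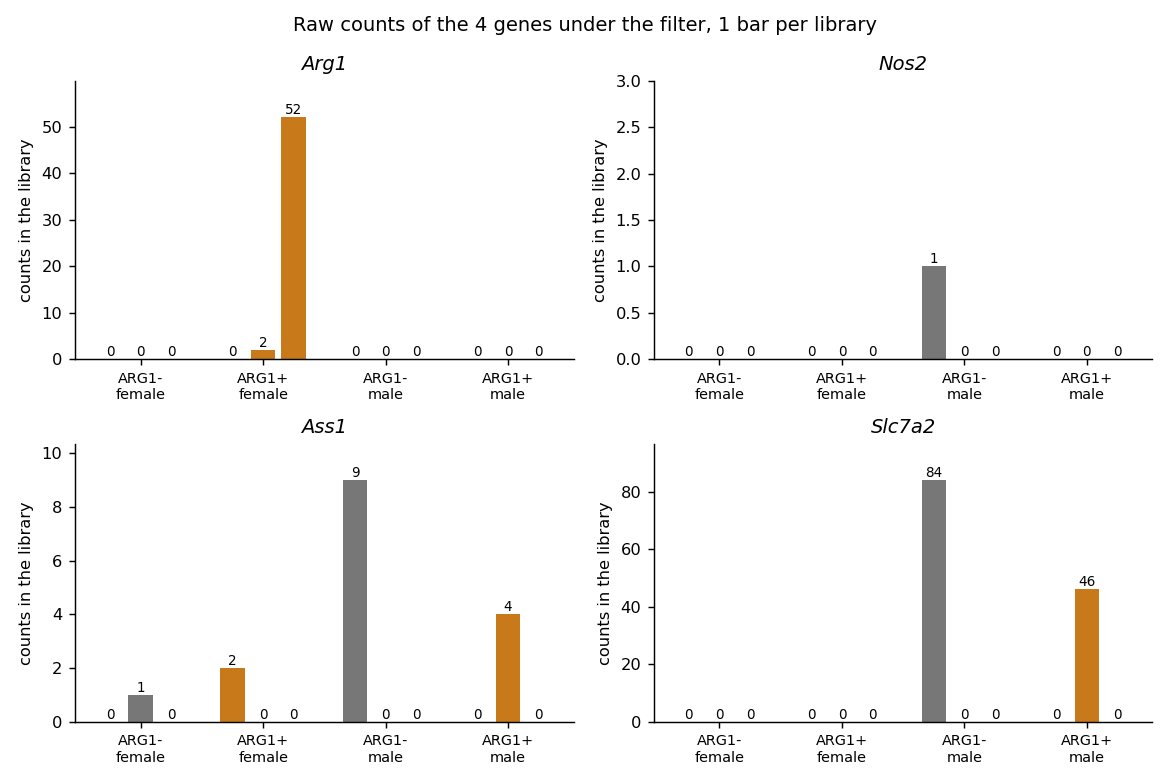
Raw counts (vertical axis) of Arg1, Nos2, Ass1 and Slc7a2 in each of 12 libraries, 1 bar per library, in the 4 groups of 3 (grey, ARG1-; orange, ARG1+), with libraries of a group in the order of their numbers. Arg1 has 52 and 2 counts in ARG1+ female libraries and 0 elsewhere, Nos2 has 1 count in all, and Slc7a2 has counts in 2 male libraries, 1 of each population.

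The other 6 genes, Arg2, Slc7a1, Odc1, Azin1, Srm and Sat1, passed the filter and were compared between ARG1+ and ARG1- microglia with sex as a second term. With edgeR's quasi-likelihood test and Benjamini-Hochberg adjustment over all genes tested, 1 of the 6, Srm, passed the limit of 0.05 and was lower in ARG1+ microglia, and 0 were higher. Of all genes tested, 15.9% were called, 9.42% lower and 6.44% higher, so a share of 1 in 6 is near that background. At an unadjusted p under 0.05 there were 3 (Srm, Sat1 and Slc7a1), beside 29.1% of all genes tested. The median log2 fold change of the 6 genes was -0.30, beside 0.06 over all genes tested, with 2 genes above 0 and 4 under it. For 0 of the 6 genes did all ARG1+ libraries lie apart from all ARG1- libraries, which was the case for 10% of all genes tested (3.48% with ARG1+ microglia higher and 6.56% with them lower).

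Srm (chr4:148591503-148594993) makes spermidine from putrescine. It had 85.9, 79.0 and 75.8 CPM in ARG1- females, 93.3, 57.3 and 89.0 CPM in ARG1- males, 48.2, 54.0 and 56.7 CPM in ARG1+ females and 76.0, 49.0 and 55.7 CPM in ARG1+ males. All ARG1+ libraries except male replicate 11 lay under every ARG1- library. Male replicate 11 lay above ARG1- male replicate 6 and ARG1- female replicate 13. The means were 56.6 ± 10.1 CPM in ARG1+ and 80.0 ± 12.8 CPM in ARG1- microglia (SD, n = 6 libraries each). The fitted level in ARG1+ microglia was 0.706 times that in ARG1- microglia (95% confidence interval 0.566 to 0.880), a log2 fold change of -0.50 (SE 0.15, edgeR adjusted p = 0.0358). The call was narrow. When each library was left out in turn, it was lost in 10 of 12 fits, with an adjusted p of 0.0116 to 0.112 over these fits, and was kept only without ARG1- male replicate 6 or ARG1+ male replicate 11, the libraries of each population nearest to the other. The direction was lower in all 12 fits.

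Sat1 (chrX:155213132-155216449), whose enzyme acetylates spermidine and spermine, had 311, 568 and 485 CPM in ARG1- females, 467, 506 and 491 CPM in ARG1- males, 337, 341 and 400 CPM in ARG1+ females and 403, 315 and 319 CPM in ARG1+ males. Of the ARG1- libraries, 5 lay above every ARG1+ library, and female replicate 1 lay under all of them. The means were 352 ± 39.2 CPM in ARG1+ and 471 ± 86.0 CPM in ARG1- microglia, and the fitted ratio was 0.748 (95% confidence interval 0.612 to 0.914). The log2 fold change of -0.42 (SE 0.13) had an edgeR adjusted p of 0.0512, so Sat1 did not pass the threshold. It lay close to it, and passed under 5 of 9 other settings of the analysis, with an adjusted p of 0.022 to 0.106 over the 9. Without ARG1- female replicate 1 its log2 fold change was -0.52 and its adjusted p 0.00415. Without any other single library the adjusted p lay above 0.05, up to 0.144.

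Over the 12 libraries, the summed level of the retained intron list had a Pearson correlation of -0.642 with Srm and of -0.332 with Sat1 on the log2 scale. Within the 4 groups, after each group's mean was subtracted, the correlations were 0.200 and 0.722. These values describe 12 libraries that share the contrast of the populations, and the part of this list in the difference of Srm was not tested.

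Odc1 (chr12:17544794-17551505), which encodes the enzyme that commits ornithine to polyamine synthesis, lay between 13.1 and 25.8 CPM in ARG1- (median 20) and between 15.7 and 30.2 CPM in ARG1+ microglia (median 20.5). The ranges of the populations overlapped from 15.7 to 25.8 CPM. Its log2 fold change was 0.11 (SE 0.20, edgeR adjusted p = 0.764), and its 95% interval allowed a level in ARG1+ microglia of 0.800 to 1.45 times that in ARG1- microglia. Without ARG1+ female replicate 7, which had the highest value, the log2 fold change was -0.006.

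Azin1 (chr15:38487427-38519266) had 47.7 to 136 CPM in ARG1- (median 90.5) and 65.9 to 102 CPM in ARG1+ microglia (median 78.0). The widest spread was among the ARG1- females, at 76.1, 47.7 and 136 CPM, whereas the ARG1+ libraries stayed within the ARG1- range. Fitted over all libraries, the log2 fold change was -0.17 (SE 0.23, edgeR adjusted p = 0.671), with an interval of 0.625 to 1.26 for the ratio. An antisense gene, Gm49077, covers 5.72% of its exon bases.

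Among the 10 genes, the arginine genes that passed the filter were low. Arg2 (chr12:79130777-79156301) had 3.78 to 6.31 CPM in ARG1- (median 5.56) and 3.30 to 4.44 CPM in ARG1+ microglia (median 3.59). The 3 ARG1- male libraries (5.79, 5.99 and 6.31 CPM) and ARG1- female replicate 2 (5.34 CPM) lay above all 6 ARG1+ libraries. ARG1- female replicates 1 and 13 (3.78 and 4.39 CPM) lay within the ARG1+ range. The log2 fold change was -0.47 (SE 0.23, edgeR adjusted p = 0.203), and the ratio had an interval of 0.509 to 1.02. Arg2 shares 20% of its exon bases with Vti1b on the opposite strand, a gene with 22668 counts against 2047 for Arg2. The strand setting of the counting is not given in the sources used here, so the Arg2 values are uncertain to that extent.

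Slc7a1 (chr5:148327410-148399904), the main arginine importer of many cell types, had 0.859 to 3.68 CPM in ARG1- (median 2.67) and 2.82 to 5.66 CPM in ARG1+ microglia (median 4.92). Of the 6 ARG1+ libraries, 4 lay above every ARG1- library. Its log2 fold change of 0.94 (SE 0.39) was the largest in size of the 6 genes, yet its interval was wide, at a ratio of 1.06 to 3.47, and the edgeR adjusted p was 0.131. It fell to 0.0464 under a stricter filter that required 10 counts of a gene in each library.

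**Figure D3:**
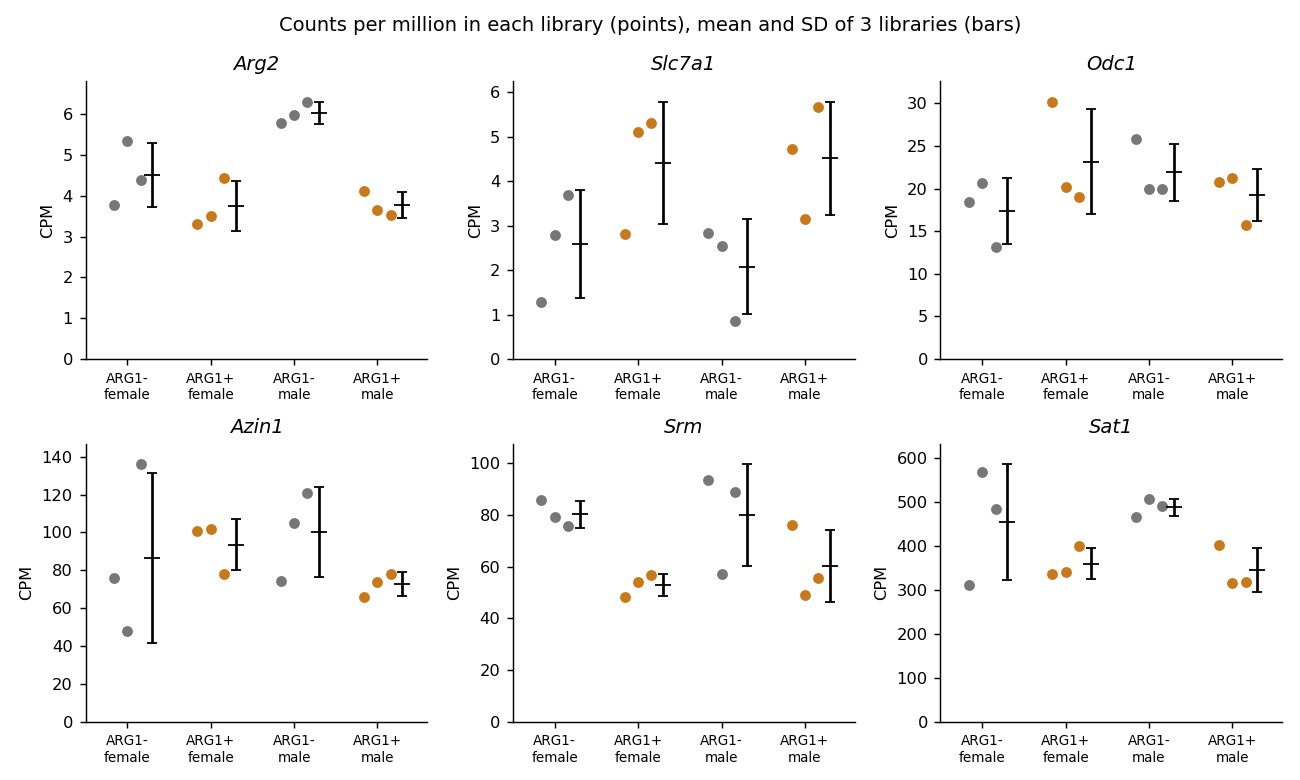
CPM (vertical axes, each from 0) of the 6 tested genes in each library, 1 point per library, by group (grey, ARG1-; orange, ARG1+), with the mean and SD of the 3 libraries as black bars. Srm lies at 48.2 to 76.0 CPM in ARG1+ and 57.3 to 93.3 CPM in ARG1- libraries, and 1 ARG1- female library of Sat1 (311 CPM) lies under all ARG1+ libraries.

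The ARG1 contrast was then taken within each sex, from the 4 group means. In females 0 of the 6 genes were called by edgeR (beside 6.76% of all genes tested) and in males 0 (beside 5.13%), with 1 gene in each sex at an unadjusted p under 0.05, Srm in females and Sat1 in males. DESeq2 also called 0 in each sex. The log2 fold change of Srm was -0.60 (SE 0.21, adjusted p = 0.114) in females and -0.41 (SE 0.21, adjusted p = 0.275) in males. Sat1 had -0.34 (SE 0.19, adjusted p = 0.329) in females and -0.50 (SE 0.19, adjusted p = 0.150) in males, and Slc7a1 had 0.77 (SE 0.57, adjusted p = 0.482) and 1.12 (SE 0.57, adjusted p = 0.273).

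These 3 genes had the same sign in both sexes, as did Arg2. Odc1 and Azin1 had positive values in females (0.41 and 0.11) and negative values in males (-0.19 and -0.46). The difference between the sexes did not pass the test of the interaction for any of the 6 genes. Its smallest p was that of Odc1, with a log2 difference of 0.60 (SE 0.37, 95% interval -0.21 to 1.41, edgeR adjusted p = 0.659), and 0 of the 6 had an unadjusted p under 0.05. Over all genes tested the interaction called 0 genes by edgeR, with 1576 at an unadjusted p under 0.05.

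Females and males were also compared within each population. None of the 6 genes was called among ARG1- microglia (0.0946% of all genes tested were) or among ARG1+ microglia (0.0355%), by edgeR or DESeq2, and 0 had an unadjusted p under 0.05 in either. Among ARG1- microglia the values of females minus males ranged from -0.42 for Arg2 (95% interval -1.14 to 0.30) to 0.32 for Slc7a1 (-0.93 to 1.57). Among ARG1+ microglia they ranged from -0.18 for Srm (-0.65 to 0.28) to 0.37 for Azin1 (-0.33 to 1.06). These intervals do not show that the sexes were alike.

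**Figure D4:**
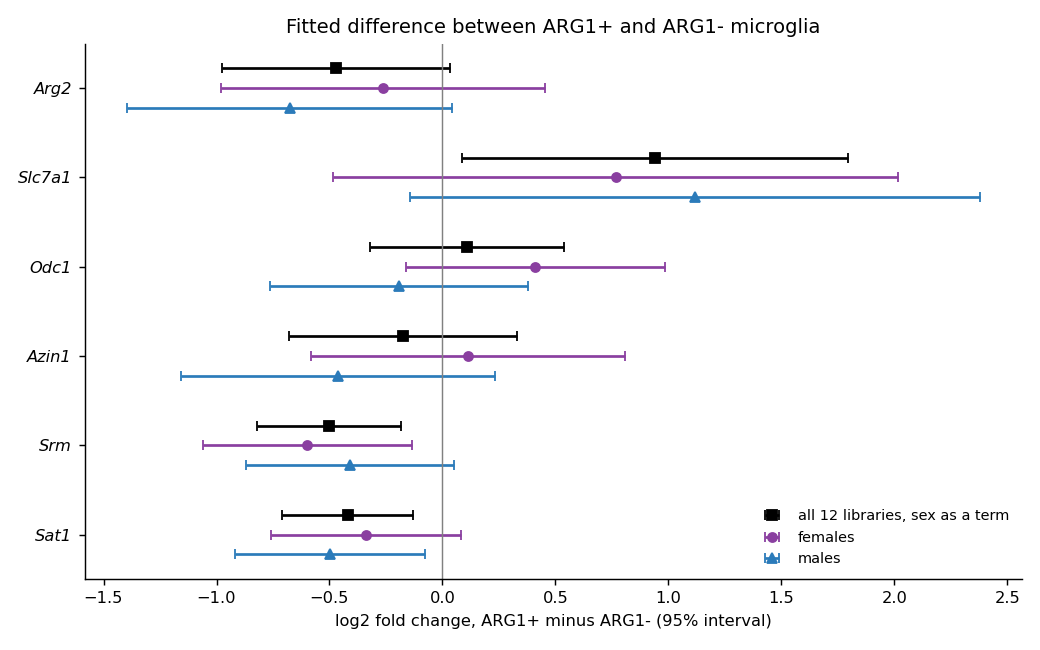
Log2 fold change of ARG1+ over ARG1- microglia (horizontal axis) with its 95% confidence interval for the 6 tested genes, from the fit of all 12 libraries with sex as a term (black squares) and from the contrasts within females (purple circles) and within males (blue triangles). Over all libraries the intervals of Srm, Sat1 and Slc7a1 leave out 0, with Slc7a1 the widest (0.09 to 1.80), and Odc1 and Azin1 have opposite signs in the sexes.

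The genes whose levels followed Srm most closely over the 12 libraries were Stmn1, a regulator of microtubules (Pearson r = 0.932 of log2 CPM), and Khk, the fructokinase (r = 0.923). Both were also lower in ARG1+ microglia, with log2 fold changes of -0.69 (edgeR adjusted p = 0.0120) and -0.60 (adjusted p = 0.00563). Since they were picked by their closeness to Srm in the same libraries, these values are not separate evidence. By Spearman's measure the closest were Jpt1 (0.958) and Tceal9 (0.944) instead. Among the 6 tested genes themselves, Arg2 and Sat1 went together most closely, with r = 0.872 over 12 libraries and 0.865 within the groups. Srm and Sat1 had r = 0.524 over 12 libraries and 0.0818 within the groups. These are descriptions over libraries that share the contrast of the populations.

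The other genes of these pathways were described by 4 lists with 69 genes in all, of which 55 passed the filter. Of these, 9 were called (16.4%, beside 15.9% of all genes tested), 7 of them lower and 2 higher in ARG1+ microglia, and the median log2 fold change was -0.15. The number called was thus close to the background, and 18 (32.7%) had an unadjusted p under 0.05, beside 29.1% of all genes tested. The populations lay apart for 5 of the 55 genes, of which 4 were lower and 1 higher in ARG1+ microglia. They lay apart for 10% of all genes tested (6.56% lower and 3.48% higher), so this count was also close to the background.

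Among 22 other polyamine genes, 19 were tested, 3 were lower and 0 higher, beside 9.42% lower and 6.44% higher of all genes tested. Oaz1, the antizyme that binds ornithine decarboxylase and sends it to the proteasome, fell the most of the called genes. It had 189 to 231 CPM in the ARG1- libraries and 95.1 to 171 CPM in the ARG1+ libraries, without overlap, and fell by 0.74 on the log2 scale (SE 0.13, edgeR adjusted p = 0.00317). The call held in all 12 fits without 1 library. Translation of antizyme is known to need a shift of the reading frame at an early stop codon, which polyamines promote. That codon, in capitals, lies after 68 codons of the first frame at GRCm38 chr10:80828280-80828309, plus strand.
Oaz1: cctcggtggtgctccTGAtgtccctcaccc
RNA levels do not measure this step. A processed copy, Oaz1-ps, had 1739 counts of its own, and the effect of reads shared between the copies on the Oaz1 counts was not tested.

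The other polyamine genes that fell were Eif5a and Dohh. Eif5a, the translation factor that spermidine modifies, at 394 TPM the most abundant gene of the list, fell from 370 ± 23.5 to 261 ± 49.2 CPM (log2 fold change -0.50, SE 0.12, edgeR adjusted p = 0.0145), with every ARG1+ library under every ARG1- library. Its adjusted p was 0.0535 without ARG1+ female replicate 7 and 0.0510 without ARG1+ male replicate 16, and under 0.05 in the other 10 fits. Dohh, whose enzyme completes the hypusine residue on EIF5A, fell from 44.8 ± 4.76 to 30.2 ± 7.30 CPM (log2 fold change -0.57, SE 0.16, adjusted p = 0.0341), but 47.5% of its exon bases are shared with Gm48551 on the same strand and its call held in 3 of the 12 fits without 1 library (ARG1+ female replicate 8, ARG1- male replicate 5 or ARG1+ male replicate 11), with an adjusted p of up to 0.0997 in the others. Dhps, whose enzyme uses spermidine in the step before Dohh, was not called, at 28.4 ± 6.53 CPM in the ARG1+ and 31.6 ± 9.53 CPM in the ARG1- libraries (adjusted p = 0.741, log2 fold change -0.14), and the related Eif5a2 had 7.02 ± 3.35 and 5.39 ± 4.11 CPM (adjusted p = 0.772, log2 fold change 0.44). Both were named after their values were seen. Mat2a, which makes the S-adenosylmethionine from which the aminopropyl groups of spermidine come, had 380 ± 25.6 and 351 ± 65.4 CPM (adjusted p = 0.559).

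Among 18 other genes of arginine, urea cycle, proline and creatine metabolism, 15 were tested, 3 were lower and 0 higher. Of all genes tested, 9.42% were lower and 6.44% higher. Glul, the glutamine synthetase, had 228 to 321 CPM in ARG1- and 188 to 221 CPM in ARG1+ libraries, without overlap, and fell by 0.45 on the log2 scale (SE 0.10, edgeR adjusted p = 0.00931). Glul is known for its high expression in astrocytes. The summed astrocyte markers were lower in the same libraries without overlap (130 to 152 against 178 to 224 CPM, median log2 fold change -0.44). Most of this sum was Slc1a3, the 1 marker of 8 that was called. The part of astrocyte RNA in the Glul value was not tested. Asl, which releases arginine from argininosuccinate, fell by 0.63 (SE 0.17, adjusted p = 0.0247), from 53.5 ± 11.6 to 34.4 ± 6.78 CPM, with a call kept in 7 of the 12 fits without 1 library. It was lost, with an adjusted p of up to 0.0837, without ARG1+ female replicates 7 or 8, ARG1- male replicate 14 or ARG1+ male replicates 12 or 16. Thus the lyase of arginine synthesis was well measured in microglia in which its partner Ass1 had 16 counts. Gatm, the first enzyme of creatine synthesis and the most abundant gene of the list (337 TPM), had 331 ± 65.8 and 340 ± 25.4 CPM (adjusted p = 0.843). The urea cycle genes Cps1 and Nags had 0 counts in all 12 libraries.

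Among 17 other genes of nitric oxide and tetrahydrobiopterin metabolism, 12 were tested, 1 was lower and 1 higher. The shares over all genes tested were 9.42% lower and 6.44% higher. Ddah2, of a family known for the breakdown of methylarginines that inhibit nitric oxide synthases, was also the most abundant gene of the list (118 TPM), and fell from 79.4 ± 13.5 to 48.0 ± 7.5 CPM (log2 fold change -0.72, SE 0.14, edgeR adjusted p = 0.00601). Only ARG1+ male replicate 11 (62.9 CPM) and ARG1- male replicate 14 (60.0 CPM) overlapped. Nos1ap, an adaptor of the neuronal nitric oxide synthase, rose from 9.67 ± 6.07 to 21.7 ± 4.14 CPM (log2 fold change 1.17, SE 0.37, adjusted p = 0.0465), and its call held in 2 of the 12 fits without 1 library (ARG1- male replicates 5 or 14), with an adjusted p of up to 0.0954 in the others. Qdpr, which recycles the cofactor tetrahydrobiopterin, had 53.9 ± 9.82 and 73.1 ± 15.8 CPM (adjusted p = 0.109). The synthases that these genes serve were hardly counted, with 1 count for Nos1 and 28 for Nos3 over all libraries.

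Among 12 other genes of arginine transport and sensing, 9 were tested, 1 was higher and 0 lower. The shares over all genes tested were 6.44% higher and 9.42% lower. Slc38a9, the arginine sensor of the lysosome, rose from 67.7 ± 10.8 to 93.9 ± 5.90 CPM without overlap between the populations (log2 fold change 0.48, SE 0.11, edgeR adjusted p = 0.0137). The call was lost when each library's trend on exon length and GC content was removed (log2 fold change 0.21, adjusted p = 0.286). The shared heavy chain Slc3a2, at 517 TPM the most abundant gene of the list, had 586 ± 60.0 and 630 ± 114 CPM (adjusted p = 0.624), and its arginine-carrying partner Slc7a7 had 190 ± 19.9 and 196 ± 31.1 CPM (adjusted p = 0.818). Compared per length, Slc7a7 at 175 TPM stood far above Slc7a1 at 0.907 TPM. The transporter genes Slc7a9 and Slc6a14 had 0 counts in all 12 libraries.

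**Figure D5:**
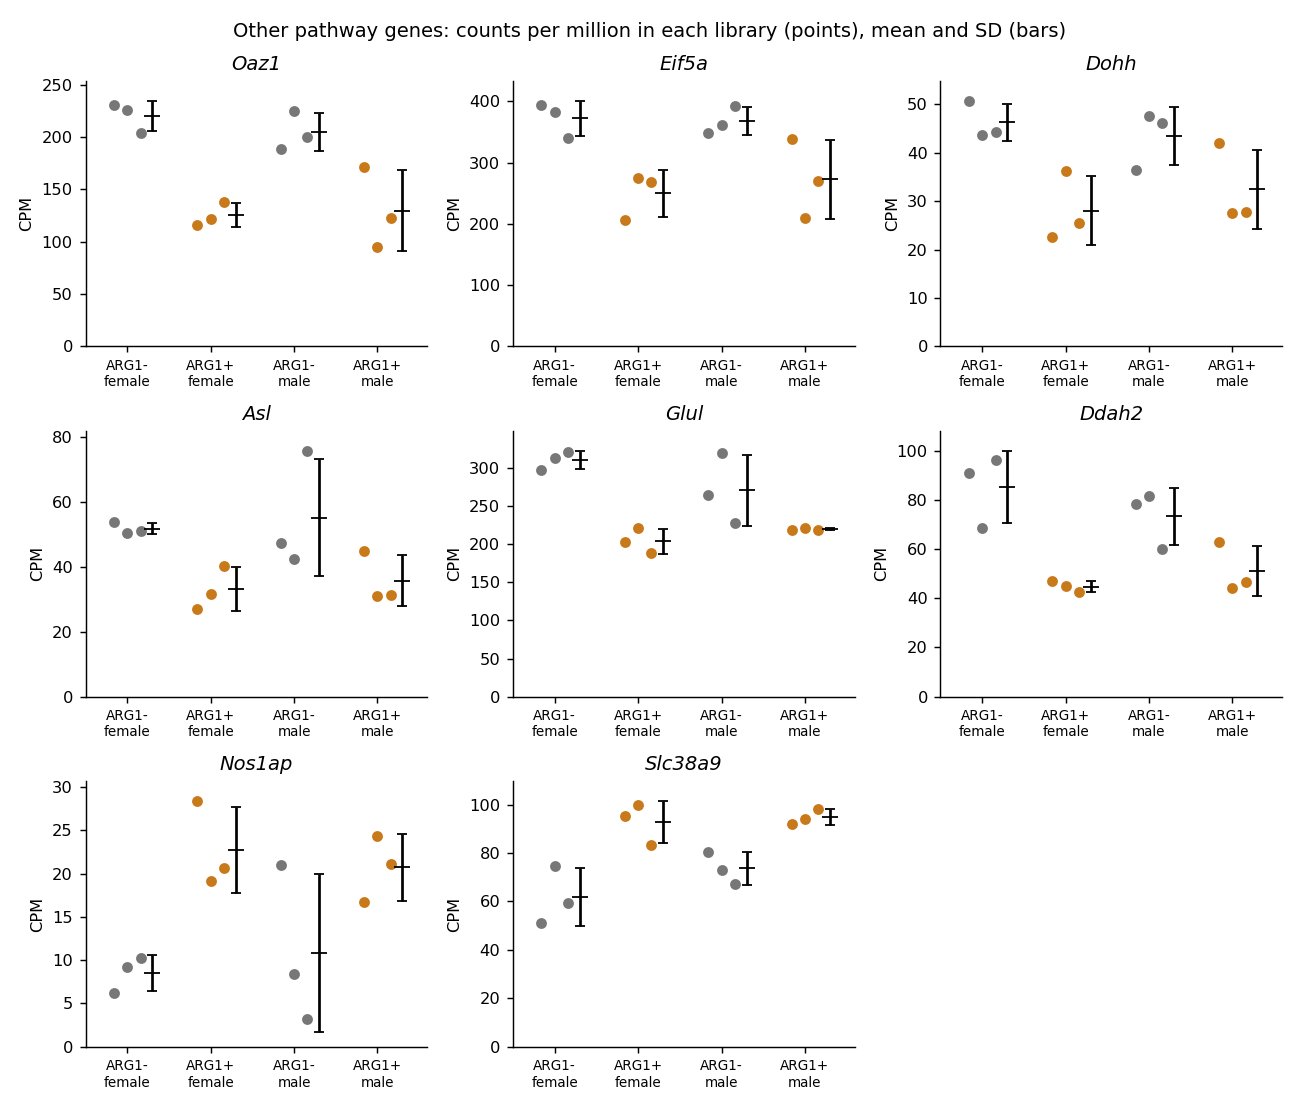
CPM (vertical axes, each from 0) of 8 of the 9 other pathway genes called between ARG1+ and ARG1- microglia, 1 point per library, by group (grey, ARG1-; orange, ARG1+), with the mean and SD of 3 libraries as black bars. Of the 8 genes, 6 are lower in ARG1+ microglia, and Oaz1, Eif5a, Glul and Slc38a9 show no overlap between the populations.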

How the data were processed

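RNA of sorted microglia from YARG mice was sequenced in 12 libraries, 3 per group. According to the methods of the study and the submitters' processing notes, cDNA was made with SMART-Seq v4 and Nextera XT, single-end reads were demultiplexed with bcl2fastq 2.20.0, aligned to GRCm38/mm10 with STAR 2.6.1d and counted per gene with featureCounts 1.5.1. The authors deposited raw counts per gene without normalization, 1 column per library, and 0 columns were left unused. The study itself compared groups with DESeq2 1.28.1.

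Symbols, positions and exon lengths came from GENCODE M21, which matched 55227 of 55487 identifiers, and the other 260 held 0.0333% of counts. Sequences were read from its transcripts. Counts were analysed in R 4.3.3 with edgeR 4.0.16 (filterByExpr on the 4 groups, TMM, glmQLFit, glmQLFTest, Benjamini-Hochberg over all genes tested, limit 0.05). ARG1 status was fitted with sex as a term, and contrasts within sexes, between sexes and the interaction came from 4 group means. DESeq2 1.42.0 was an alternative. Standard errors were derived from each fold change and its F value. TPM values are relative to the union of annotated exons. The edgeR fit was tested on simulated counts.

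Replicate libraries of a group differed by 40.7 to 125 times the degrees of freedom in a chi-square test of their counts, so each counted as 1 sample. The study calls them independent replicates from pooled tissue, with litters as the replicates of a sex and both populations sorted from their tissue. The labels do not say which libraries share a litter, so the fits treated libraries as independent. Their p-values rest on the spread between libraries, from which differences between litters were not separated. The 10 genes and all lists were chosen with earlier results of these data known. Named were the 10 genes, up to 3 called genes in each direction and the 2 most abundant genes by TPM of each pathway list, the 2 genes most like a called gene, and of marker lists the leading gene and defining markers at 0, and some of these genes are not reported here. Alternatives were other size factors, filters, terms, a length and GC correction, thinned counts and leaving out each library.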

Additional observations from a re-analysis of the deposited data

Results flagged for a closer look

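In populations of 6 libraries, the highest or lowest library of the 10 genes was compared with the others by Dixon's criterion. Of 18 sets of libraries searched, 6 were picked out. Chance picks out about 1 in 20 sets of normally spread values, an expectation that does not apply to the 5 sets of genes at or near 0 in the other libraries, where any count stands out. Arg1 stood out in ARG1+ female replicate 15, at 1.48 CPM against at most 0.0680 CPM in the other ARG1+ libraries. Slc7a2 stood out in ARG1- male replicate 5 (2.22 CPM) and in ARG1+ male replicate 12 (0.966 CPM), with 0 in the other libraries of the same population. Ass1 stood out in ARG1- male replicate 5 (0.238 CPM from 9 counts, against at most 1 count), as did Nos2 (0.0264 CPM from 1 count, under the limit of 3 counts). Srm stood out in ARG1+ male replicate 11, at 76.0 CPM against 48.2 to 56.7 CPM in the other 5 ARG1+ libraries.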

How the results depend on the processing

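The number of the 10 genes called lower (1 as reported) was 0 with DESeq2 size factors or no filter, 2 with at least 10 counts in every library, with DESeq2, with ARG1 status alone or with thinned counts, and 0 to 1 without single libraries. The number called higher (0) was 1 with at least 10 counts in every library. Of the other pathway genes, 2 were called higher as reported, 1 with no filter, 5 with at least 10 counts in every library, 5 with DESeq2 and 1 to 3 without single libraries, and 7 were called lower, with 4 to 7 without single libraries. Over all genes, 2682 were called, and 1753 (without ARG1+ male replicate 12) to 2669 without single libraries. Higher calls over all genes were 1089 as reported, 1896 with DESeq2 and 690 without ARG1+ male replicate 12, and lower calls 1593, with 1048 without ARG1+ male replicate 16. By list, the polyamine genes called higher (0) were 1 with DESeq2 size factors and 2 with DESeq2, with at least 10 counts in every library or with the length and GC trend removed, and those called lower (3) were 1 to 3 without single libraries. The log2 fold change of Srm stayed negative in every fit (-0.60 to -0.42), and its adjusted p was 0.0516 with DESeq2 size factors, 0.0825 with no filter and 0.0629 with the length and GC trend removed. Sat1 passed the threshold with DESeq2 (adjusted p = 0.0338), with at least 10 counts in every library (0.0477), with ARG1 status alone (0.0383), with the length and GC trend removed (0.022) and with thinned counts (0.0494). Odc1 ranged from -0.006 (without ARG1+ female replicate 7) to 0.22 without single libraries. The cause of these changes was not tested. Sat1 per length was 716 TPM on the longest transcript instead of 442. No paired analysis was possible because the groups share no replicate numbers in the labels. At a limit of 3 counts a library, levels under 0.0511 to 0.102 CPM, depending on the library, were read as not detected. Nos2 stayed under this limit in all 12 libraries.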

Other observations

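The 55 tested genes of the other pathway lists were also compared within each sex. Within females 6 were called by edgeR's quasi-likelihood test (3 higher and 3 lower), beside 6.76% of all genes tested, and within males 0, beside 5.13%. At an unadjusted p under 0.05 there were 15 (27.3%) within females, beside 22.9% of all genes tested, and 9 (16.4%) within males, beside 22.8%. Sat2, a relative of Sat1, was singled out after its values were seen. It had a mean of 3.83 CPM in ARG1- females, 11.9 CPM in ARG1+ females, 8.21 CPM in ARG1- males and 8.28 CPM in ARG1+ males, with a log2 fold change of 1.63 in females (edgeR adjusted p = 0.0239) and 0.01 in males (adjusted p = 0.990). The difference between the sexes did not pass the interaction test for Sat2 (edgeR adjusted p = 0.456).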
